A study of Mus musculus with 6 samples.

Results

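The genes described are 9 proteins that carry retinoids or respond to them: the plasma retinol carrier Rbp4, its receptor Stra6, the cellular retinoic acid binding proteins Crabp1 and Crabp2, the retinoic acid receptors Rara, Rarb and Rarg, and the retinoid X receptors Rxra and Rxrb. They were taken by symbol from a table of 23494 genes, and all 9 had a row. The set was chosen by the measured expression, since Crabp1 lay lower with rMANF than with vehicle, so the rMANF and vehicle values of its members are given as a description, with no test.

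Expression was measured in 3 libraries labelled rMANF and 3 labelled vehicle, all from wild-type female C57BL/6 mice that carried a subcutaneous flank graft of B16F10, a mouse melanoma line. The rMANF mice received recombinant MANF (mesencephalic astrocyte-derived neurotrophic factor, a secreted endoplasmic reticulum protein) at 2 µg/kg every day by intraperitoneal injection. Vehicle mice received phosphate-buffered saline, and injections began when tumours averaged about 60 mm3. Neither the age of the mice nor the way 3 libraries were drawn from the 8 mice per group is stated. The vehicle columns have names beginning with IgG, an antibody class, although the treatment given is saline. The labels call the samples of a group biological replicates and name no separate animals, so the spread given is that between samples.

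Values are in TPM, a length-corrected share of each library. Between 18830 and 19298 genes had a value above 0 in a library, and the read depth is unknown. The tissue is labelled heart, but the cardiomyocyte markers Nppa, Actc1 and Pln stayed below 1 TPM in every library, and 12 such markers summed to 8.21 to 12.6 TPM with rMANF and 8.15 to 59.9 TPM with vehicle. All directions below rest on the labels rMANF and vehicle.

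Retinol travels in blood bound to RBP4 and enters some cells through STRA6. Cells oxidise it to retinoic acid, which CRABP1 and CRABP2 bind in the cytosol: CRABP2 hands it to the receptors, while CRABP1 is linked to its sequestration and breakdown. Retinoic acid receptors pair with retinoid X receptors on DNA at repeated hexamers, and retinoid X receptors also pair with many other nuclear receptors. In the heart the pathway is known for its part in the development of the chambers and great vessels.

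The upstream windows of 3 genes are shown because they set the gene that chose the group, Crabp1, beside the best-known retinoic acid response elements, those of Rarb and of Cyp26a1, the enzyme that degrades retinoic acid. Each is the 250 bases before a RefSeq transcription start (GRCm38.p6), 5′ to 3′ on the gene's strand. Capitals mark 4 hexamers to which these receptors bind (AGGTCA, the form AGTTCA, the form GGGTCA, and also GGTTCA) and the GC box, which reads GGGCGG. All were searched on both strands, and a match is a description of the letters, not a shown binding site.
Crabp1, chr9:54764498-54764747, plus strand: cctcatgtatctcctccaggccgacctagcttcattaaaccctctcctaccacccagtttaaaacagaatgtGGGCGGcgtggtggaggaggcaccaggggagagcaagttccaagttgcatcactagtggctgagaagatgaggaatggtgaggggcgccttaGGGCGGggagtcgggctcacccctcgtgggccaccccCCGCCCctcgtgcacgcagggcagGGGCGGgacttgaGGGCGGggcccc
Rarb, chr14:16575477-16575726, minus strand: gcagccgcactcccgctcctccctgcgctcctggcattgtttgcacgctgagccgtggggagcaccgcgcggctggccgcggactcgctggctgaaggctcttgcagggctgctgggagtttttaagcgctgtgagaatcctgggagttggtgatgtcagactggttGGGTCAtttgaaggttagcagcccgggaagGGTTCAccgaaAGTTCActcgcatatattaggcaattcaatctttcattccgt
Cyp26a1, chr19:37697558-37697807, plus strand: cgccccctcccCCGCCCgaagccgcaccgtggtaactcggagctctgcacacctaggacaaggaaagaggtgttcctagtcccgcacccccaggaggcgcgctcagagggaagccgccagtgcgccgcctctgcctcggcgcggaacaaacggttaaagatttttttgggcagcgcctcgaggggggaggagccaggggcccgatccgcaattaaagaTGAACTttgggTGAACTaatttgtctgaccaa

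In the Rarb window 2 hexamers stand 5 bases apart as a direct repeat, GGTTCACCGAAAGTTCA, at −53 to −37 from the start. The Cyp26a1 window holds the like repeat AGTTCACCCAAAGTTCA on the other strand, at −32 to −16. Such a repeat was found in 29 of 32851 windows of this length (0.0883%), and single hexamers in 38.6%. Crabp1's window holds no hexamer of these 4 kinds and 5 GC boxes, with 12 CpG dinucleotides against a median of 6 over all windows. At least 1 GC box was found in 32.7% of windows. Entries were present for 8 of the 9 members.

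Of the 9 genes, the retinol carrier and the receptors were the abundant ones. Over the 6 libraries Rbp4 averaged 58.2 TPM, Rxrb 54.8, Rxra 28.6, Rarg 22.3, Rara 17.4, Crabp1 7.19, Stra6 4.34, Crabp2 1.05 and Rarb 0.0409 TPM. Within a library the order was the same at 6 of the 8 steps in all 6 libraries. The other 2 steps turned with the group. Rbp4 was above Rxrb in 0 of 3 rMANF libraries and in all 3 vehicle libraries, and the same held for Crabp1 above Stra6, though Stra6 led Crabp1 only narrowly in the rMANF libraries. A mean of at least 1 TPM, the minimum for entering the fit across all genes, was reached by 8 members, with Crabp2 just above it and Rarb below it.

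**Figure D1:**
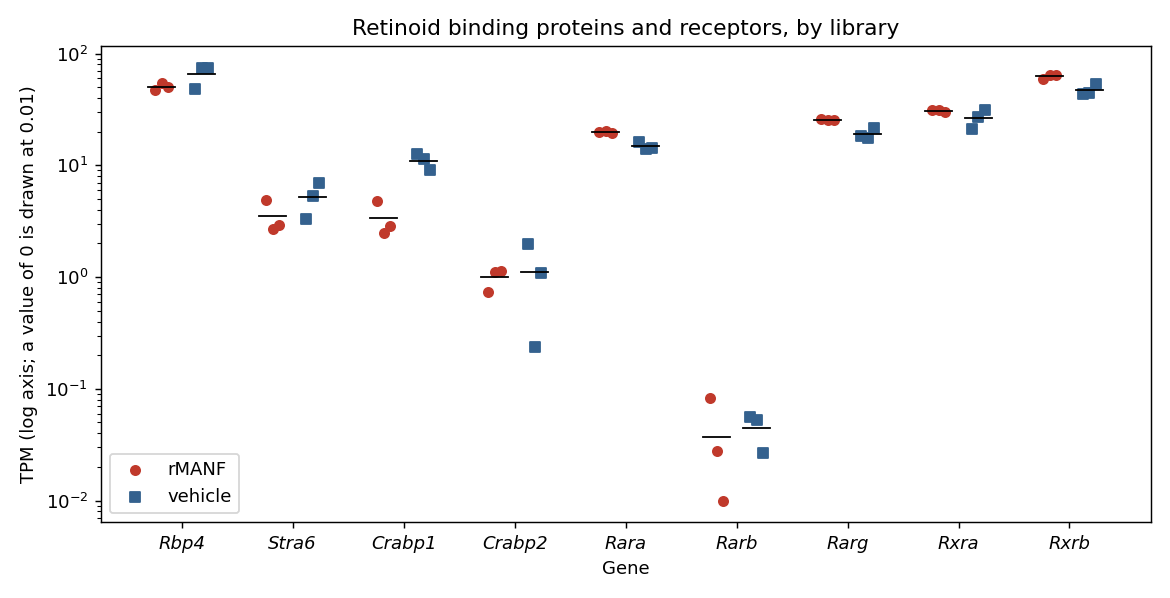
TPM of the 9 genes in each library on a log axis, with rMANF libraries as circles, vehicle libraries as squares and the group mean (n = 3) as a bar. The Rarb value of 0 is drawn at the low end of the axis. Crabp1 is below every vehicle value in all rMANF libraries, and Rara, Rarg and Rxrb are above.

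Crabp1 was about a factor of 3.25 lower in the rMANF libraries than in the vehicle libraries. It measured 4.81, 2.49 and 2.85 TPM with rMANF, against 12.6, 11.4 and 9.01 TPM with vehicle. The groups do not overlap: the highest rMANF library, replicate 1, lies well below the lowest vehicle library, replicate 3. Means were 3.38 ± 1.25 TPM with rMANF and 11.0 ± 1.82 TPM with vehicle (SD, n = 3 each). On the log2(TPM + 1) scale, which understates changes of low genes, the difference was −1.48 ± 0.21 (SE from limma), and 54 of the 12865 genes tested had a lower one. With a pseudocount of 5 TPM it was −0.94.

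Macrophage markers lay lower in the same libraries, and the summed fibroblast markers overlapped between the groups. Macrophage markers, 16 of 16 present and led by Lyz2 and C1qa, summed to 2181 to 3016 TPM with rMANF and 3706 to 4271 TPM with vehicle. Fibroblast markers, 12 of 12 present and led by Col3a1 and Postn, summed to 336 to 427 TPM with rMANF and 397 to 538 TPM with vehicle. The sum joins markers that differed in opposite directions. Of the 11 in the fit, 5 lay lower with rMANF and 2 higher without overlap (median log2 difference −0.43). Over all tested genes 9.02% lay lower and 18.9% higher. Per 100 TPM of macrophage markers Crabp1 stood at 0.160, 0.0873 and 0.130 TPM with rMANF and 0.339, 0.268 and 0.216 TPM with vehicle. Per 100 TPM of fibroblast markers it stood at 1.43, 0.583 and 0.833 TPM with rMANF and 2.34, 2.21 and 2.27 TPM with vehicle. Neither ratio overlapped between groups, but Crabp1 was picked for lying lower, so nothing is read from this. In bulk RNA, fewer cells of a type and less RNA per cell cannot be told apart.

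Crabp1 (chromosome 9, 54764748 to 54773110, GRCm38) is followed by Rab7-ps1, which was too low for the fit (0.490 TPM with rMANF and 0.402 TPM with vehicle). The nearest genes in the fit, Wdr61 before it and Ireb2 after it, did not share its pattern. Wdr61, a subunit of the PAF1 and SKI complexes, measured 59.5 TPM with rMANF and 60.6 TPM with vehicle, and Ireb2, which encodes iron regulatory protein 2, 23.5 and 24.4 TPM in the same order. Their log2 differences were −0.03 ± 0.08 and −0.04 ± 0.14 (SE; limma, adjusted p = 0.887 and 0.915).

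The genes whose profile over the 6 libraries came nearest to that of Crabp1 were Gng13, Cd86, Cpxm1, Ctla4 and Ccl8, in that order. Likeness was the root mean square distance between log2(TPM + 1) profiles, each centred on its own mean, over the 6 libraries and 11345 genes. Distances ran from 0.23 for Gng13 to 0.32 for Ccl8, against a median of 0.82. All 5 lay lower with rMANF on average, with log2 differences of −1.04, −1.01, −1.03, −1.09 and −1.45 in that order. Crabp1 was picked for this same difference, which enters the distance, so the likeness is a description and shared regulation was not tested. Gng13, a G protein gamma subunit, measured 5.39, 3.39 and 3.81 TPM with rMANF and 11.4, 10.4 and 7.39 TPM with vehicle. Cd86 and Ctla4 encode a costimulatory ligand and its inhibitory receptor, Ccl8 a chemokine and Cpxm1 a carboxypeptidase-like protein. Among the other members Stra6 came nearest, at 0.64, and Rxrb was farthest, at 1.01.

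**Figure D2:**
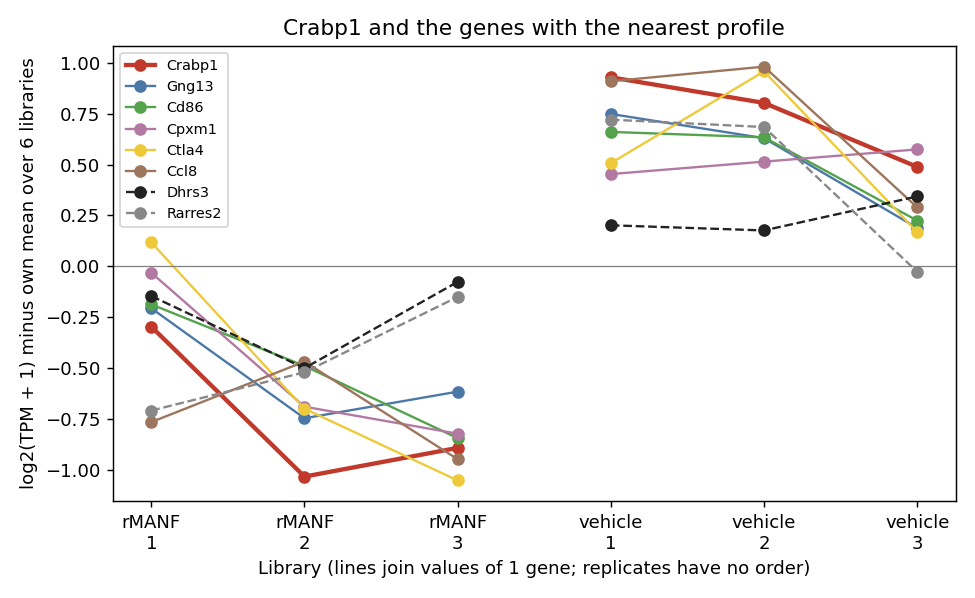
log2(TPM + 1) of Crabp1, the 5 genes nearest to it and the retinoic acid response genes Dhrs3 and Rarres2 in each library, each gene centred on its own mean over the 6 libraries. Lines join the values of a gene within a group and imply no order of replicates; Crabp1 is below its mean in all rMANF libraries and above it in all vehicle libraries.

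Crabp2, the close relative of Crabp1, did not share the difference. It measured 0.740, 1.11 and 1.13 TPM with rMANF, against 1.98, 0.236 and 1.09 TPM with vehicle. The vehicle values enclose all rMANF values, with a log2 difference of 0.01 ± 0.33 (SE) whose sign varied with the library left out (−0.33 without vehicle replicate 2 and 0.30 without vehicle replicate 1). Crabp1 exceeded Crabp2 in every library, by a factor of 2.24 to 6.50 with rMANF and 6.36 to 48.5 with vehicle.

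The plasma carrier and its receptor lay lower on average in the rMANF libraries, with overlap. Rbp4 measured 46.9, 54.1 and 50.6 TPM with rMANF, against 47.8, 75.0 and 75.0 TPM with vehicle. Vehicle replicate 1 is at the level of the rMANF libraries and the other vehicle libraries are well above them. The log2 difference was −0.35 ± 0.17 (SE), and −0.56 without vehicle replicate 1. Rbp4 is made in liver and fat: adipocyte markers, led by Fabp4 and Cfd, summed to 99.2 to 288 TPM with rMANF and 80.2 to 177 TPM with vehicle. Of the hepatocyte markers, 5 of 12 with rows, Alb and Fgb stayed below 1 TPM in every library. The 5 together summed to 16.9 to 40.2 TPM with rMANF and 12.5 to 47.1 TPM with vehicle.

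Stra6, the membrane receptor that takes up retinol from RBP4, measured 4.87, 2.72 and 2.90 TPM with rMANF, against 3.30, 5.29 and 6.96 TPM with vehicle. The groups overlap, since rMANF replicate 1 lies above vehicle replicate 1. The log2 difference was −0.45 ± 0.27 (SE), −0.69 without vehicle replicate 1 and −0.24 without vehicle replicate 3. Rbp4 exceeded Stra6 by a factor of 9.61 to 19.9 with rMANF and 10.8 to 14.5 with vehicle.

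Both abundant retinoic acid receptors lay higher in the rMANF libraries. Rara measured 19.9, 20.2 and 19.7 TPM with rMANF, against 16.3, 13.9 and 14.2 TPM with vehicle. For Rarg the values were 25.9, 25.4 and 25.2 TPM with rMANF, against 18.4, 17.6 and 21.5 TPM with vehicle. Neither gene overlapped between groups, and the rMANF libraries lay closer together than the vehicle libraries. The log2 differences were 0.41 ± 0.10 for Rara and 0.40 ± 0.10 for Rarg (SE), close to 1.35-fold and 1.33-fold in mean TPM.

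Rarb, whose own promoter holds the repeat shown above and is a classic target of retinoic acid, was nearly absent from both groups. It was listed at 0.0828, 0.0276 and 0 TPM with rMANF and 0.0555, 0.0526 and 0.0269 TPM with vehicle. Of its 5265 exonic bases 1793 overlap exons of Top2b on the opposite strand, and the library kit does not mark strand, so reads of Rarb and Top2b in this stretch are not separable (Top2b averaged 23.6 TPM with rMANF and 20.7 TPM with vehicle).

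Among the retinoid X receptors Rxrb lay higher with rMANF and Rxra overlapped. Rxrb, the more abundant of the pair, measured 59.2, 64.0 and 64.8 TPM with rMANF, against 43.1, 44.7 and 53.1 TPM with vehicle. All rMANF values lie above all vehicle values, with a log2 difference of 0.41 ± 0.10 (SE). Rxra measured 31.3, 31.1 and 30.0 TPM with rMANF, against 21.2, 27.2 and 31.1 TPM with vehicle. Its vehicle libraries spread widely and replicate 3 lies at the rMANF level, so that the difference of 0.23 ± 0.14 shrank to 0.079 when vehicle replicate 1 was left out and to −0.016 when replicate 2 was left out as well. The third retinoid X receptor gene, Rxrg, was listed at 0, 0.0446 and 0 TPM with rMANF and 0, 0.128 and 0.0435 TPM with vehicle.

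The summed retinoic acid receptors reached 45.5 ± 0.488 TPM with rMANF and 34.0 ± 2.13 TPM with vehicle, and the retinoid X receptors 93.5 ± 2.63 and 73.5 ± 10.1 TPM in the same order (SD, n = 3 each). The makeup of each class overlapped between the groups. Rara took 43.8 ± 0.445% of the retinoic acid receptor sum with rMANF and 43.6 ± 3.62% with vehicle, and nearly all of the rest was Rarg. Rxrb took 67.0 ± 1.46% of the retinoid X receptor sum with rMANF and 64.0 ± 2.67% with vehicle. The ratio of retinoid X to retinoic acid receptors was 2.06 ± 0.0740 with rMANF and 2.16 ± 0.276 with vehicle. The sums did not overlap, whereas the shares and the ratio did.

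**Figure D3:**
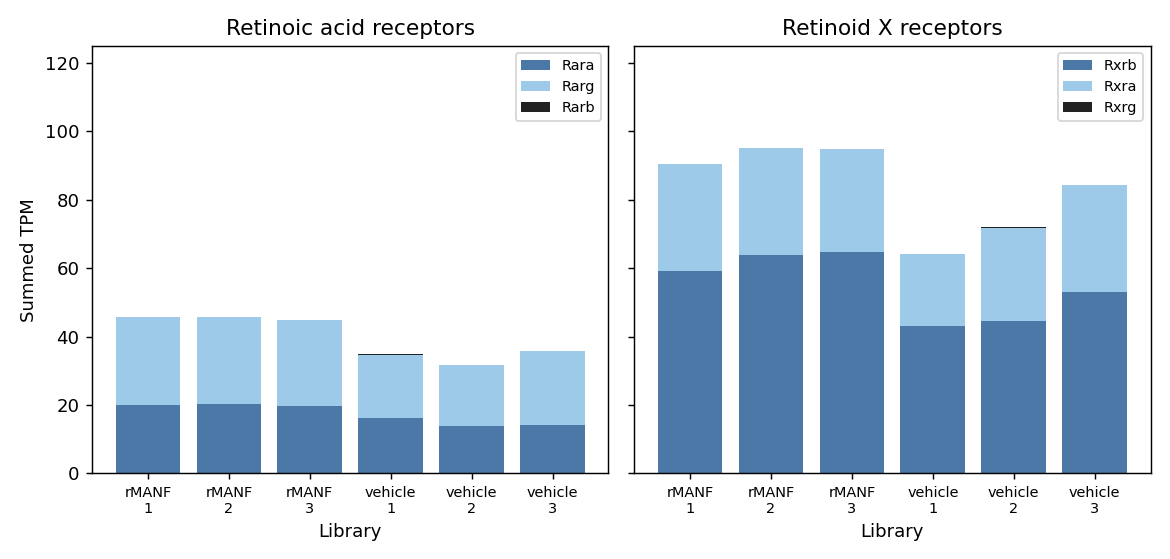
Summed TPM of the retinoic acid receptor genes (left) and the retinoid X receptor genes (right) in each library, stacked by gene. Both sums are higher in every rMANF library than in every vehicle library, Rarg and Rxrb are the larger parts, and Rarb and Rxrg show at most as a thin line at this scale.

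Set against all genes, 1 of the 8 members in the fit had all rMANF values below all vehicle values, where 9.02% of the 12865 tested genes did, and 3 of 8 had them above, where 18.9% did. Limma called 0% of all tested genes at an adjusted p of 0.05, while 2642 had an unadjusted p under 0.05. The median log2 difference was 0.12 over the 8 members and 0.04 over all tested genes. The contrast chose Crabp1, so nothing is read from the members' counts.

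Rara, Rarg and Rxrb have GC-rich transcripts, and over all tested genes the GC-rich ones more often lay higher with rMANF. Rxra is GC-rich too (57.0%), but its groups overlapped. Rxrb (61.4% GC), Rara (59.2%) and Rarg (58.8%) lie above 98.0%, 94.1% and 92.9% of the tested genes in GC content. Over all tested genes the share lying higher without overlap was 1.26% below 40% GC, 38.3% between 55% and 60% and 46.7% at 60% or more. The median log2 difference in these classes was −0.10, 0.18 and 0.31. After removal of the GC trend from each library the differences were 0.22 ± 0.10 for Rara, 0.22 ± 0.07 for Rarg and 0.16 ± 0.07 for Rxrb (SE), and Rarg alone of the 3 still had groups that did not overlap.

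Crabp1 (57.4% GC) differed from its GC class in direction. Between 55% and 60% GC 4.03% of tested genes had all rMANF values below all vehicle values. Crabp1 was picked for lying lower, so nothing is read from its place among them. Its difference was −1.62 ± 0.22 after the GC trend was removed. Rbp4 (55.6%) and Stra6 (56.3%) stood at −0.45 ± 0.17 and −0.57 ± 0.25 then, and Rxra (57.0%) at 0.09 ± 0.12. What part GC content, or the step that made it differ between libraries, has in these values was not tested.

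**Figure D4:**
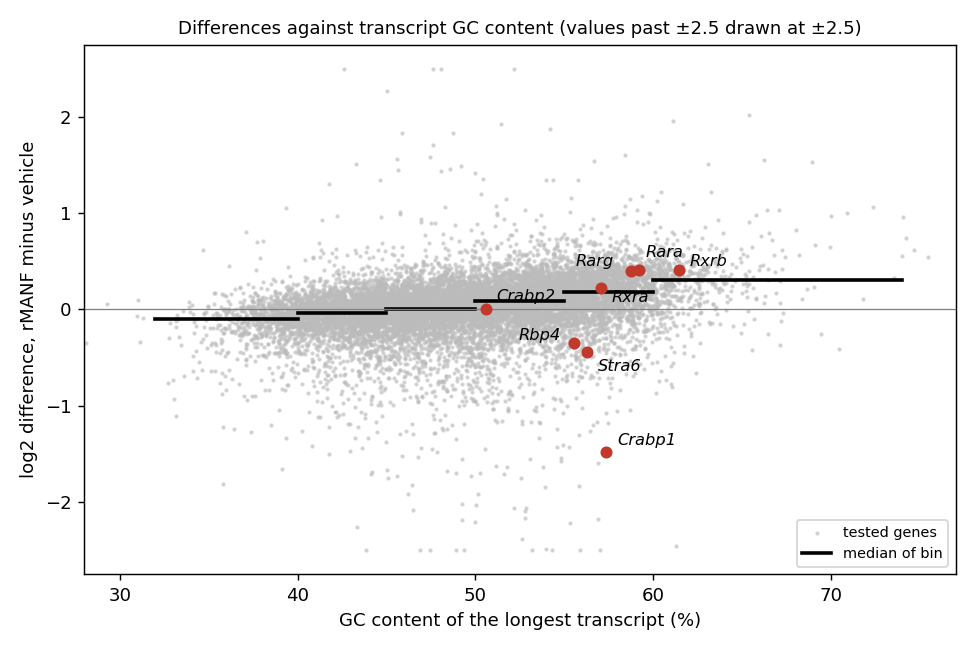
log2 difference (rMANF minus vehicle) against GC content of the longest transcript for the tested genes (grey), with the median of 6 GC classes as black lines and the 8 members in the fit in red; values beyond the plotted range are drawn at its edge. Rara, Rarg and Rxrb lie in the GC-rich classes, whose medians are 0.18 and 0.31, and Crabp1 lies far below its class.

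The other genes of the pathway were followed in 7 lists. Without the members they held 93 genes with rows and 62 in the fit. Limma called 0 of these 62 (lowest Benjamini-Hochberg adjusted p = 0.0986), and 15 had an unadjusted p under 0.05. Without overlap, 5 of them lay lower with rMANF and 12 higher, and the median log2 difference was 0.06. These counts are close to the background over all tested genes, of which 9.02% lay lower and 18.9% higher without overlap and 2642 of 12865 had an unadjusted p under 0.05. The same shares are the background for the counts of each list below, which are given as a description.

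In retinol transport and storage, 0 of 8 genes in the fit passed, 1 was lower without overlap (Lpl) and 3 were higher (Lrp1, Scarb1 and Dgat1; median 0.06). Lpl, the lipoprotein lipase that also frees retinyl esters from chylomicrons, measured 31.7, 32.8 and 19.4 TPM with rMANF, against 50.6, 62.8 and 45.9 TPM with vehicle. The log2 difference of −0.93 ± 0.21 (SE) had a limma adjusted p = 0.0986. Lrp1, an uptake receptor for chylomicron remnants, averaged 44.2 ± 1.38 TPM with rMANF and 31.9 ± 4.34 TPM with vehicle (SD, n = 3 each), and the lipoprotein receptor gene Scarb1 112 ± 11.7 and 84.1 ± 12.3 TPM in the same order (limma, adjusted p = 0.104 and 0.144). Lrat, which stores retinol as esters, stayed between 0.138 and 0.689 TPM with rMANF and between 0.0292 and 0.164 TPM with vehicle.

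The enzymes that make retinoic acid itself were near the floor of the table. Aldh1a1, Aldh1a2 and Aldh1a3, the retinaldehyde dehydrogenases of the last step, were below 1.1 TPM in all 6 libraries and too low for the fit. Their values were 0.134 to 0.531, 0.0395 to 0.197 and 0.616 to 0.773 TPM with rMANF, against 0.389 to 0.802, 0.0385 to 0.476 and 0.397 to 1.08 TPM with vehicle. Rdh10, which oxidises retinol to retinaldehyde, averaged 5.03 ± 0.571 TPM with rMANF and 4.62 ± 1.29 TPM with vehicle (SD, n = 3 each; limma, adjusted p = 0.758). Of the 11 synthesis genes in the fit 0 passed, and Dhrs3 was the single one whose groups did not overlap. The most abundant were Adh5 (182 ± 8.37 and 173 ± 6.51 TPM) and Dhrs7 (35.5 ± 0.612 and 38.8 ± 4.33 TPM), with rMANF before vehicle.

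Dhrs3 turns retinaldehyde back to retinol and is itself induced by retinoic acid. It measured 7.09, 5.33 and 7.49 TPM with rMANF, against 9.29, 9.11 and 10.4 TPM with vehicle. All rMANF values lie below all vehicle values, as for Crabp1, with a log2 difference of −0.48 ± 0.14 (SE; limma, adjusted p = 0.133). With library weights its limma adjusted p was 0.0453 and that of Lpl 0.0498, the only 2 genes of the pathway lists called there. That setting called 737 of all 12865 tested genes, so the 2 calls are not particular to the pathway.

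Among the enzymes that break down retinoic acid, Cyp26b1 was the abundant one and was nearly level. It averaged 13.6 ± 1.20 TPM with rMANF and 13.8 ± 1.88 TPM with vehicle (SD, n = 3 each; log2 difference −0.02 ± 0.12, limma, adjusted p = 0.961). Cyp26a1, whose window is shown above, was low but did not overlap, at 0.316, 0.105 and 0.107 TPM with rMANF and 0.846, 0.754 and 0.668 TPM with vehicle. Its mean of 0.466 TPM kept it out of the fit. Without the filter on low values its log2 difference of −0.58 ± 0.10 had an unadjusted p of 0.000957 and a limma adjusted p = 0.176. Cyp26c1 lay between 0.0536 and 0.322 TPM with rMANF and between 0.105 and 0.162 TPM with vehicle.

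Of the retinoic acid response genes fixed as a list, 16 of 28 with rows entered the fit and 0 passed. There were 2 without overlap that lay lower, 2 that lay higher (Hic1 and Zfp703), and a median of 0.04. Rarres2, which encodes the chemoattractant chemerin, measured 17.5, 20.1 and 26.2 TPM with rMANF, against 48.8, 47.6 and 28.7 TPM with vehicle (log2 difference −0.92 ± 0.22, SE; limma, adjusted p = 0.107). Vehicle replicate 3 is close to rMANF replicate 3, and without vehicle replicates 1 and 2 the difference was −0.43. The other that lay lower was Dhrs3. Hic1, a transcriptional repressor, averaged 13.8 ± 1.44 TPM with rMANF and 9.91 ± 1.45 TPM with vehicle (SD, n = 3 each; limma, adjusted p = 0.142), and its difference of 0.44 was 0.11 with the GC trend removed. The most abundant, Ccnd1 and the transglutaminase gene Tgm2, differed by 0.10 ± 0.09 and 0.17 ± 0.14.

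Fabp5 belongs to the same family of intracellular lipid carriers as the Crabp genes and can deliver retinoic acid to another receptor, PPAR delta. It measured 81.6, 85.2 and 64.4 TPM with rMANF, against 98.4, 190 and 90.8 TPM with vehicle (log2 difference −0.63 ± 0.26, SE; limma, adjusted p = 0.229). Vehicle replicate 2 is far above every other library. This was the only one of 5 family members in the fit, outside the Crabp genes, whose groups did not overlap, and 0 passed (median −0.14). Fabp4, Fabp3 and Rbp7 differed by 0.14 ± 0.43, −0.50 ± 0.39 and 0.39 ± 0.28 on the log2 scale, with overlapping groups.

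Of 12 partner receptors in the fit 0 passed, 4 lay higher (Thra, Nr1h2, Nr2f6 and Ppard) and 1 lower (Nr1h3) without overlap, with 6 differences below and 6 above 0. Thra, a thyroid hormone receptor, averaged 23.8 ± 2.26 TPM with rMANF and 17.3 ± 2.57 TPM with vehicle, and the liver X receptor gene Nr1h2 53.2 ± 1.05 and 43.1 ± 4.20 TPM in the same order (SD, n = 3 each; limma, adjusted p = 0.133 and 0.145). Nr2f6, an orphan receptor gene, differed by 0.42 ± 0.16. Of 15 coregulators 0 passed and 3 lay higher without overlap (Carm1 and Ncoa2 among them; median 0.12). Over all tested genes 18.9% lay higher and 9.02% lower without overlap, and the 3 of 15 coregulators are close to that background. The methyltransferase gene Carm1 averaged 44.1 ± 0.550 TPM with rMANF and 38.3 ± 0.916 TPM with vehicle (SD, n = 3 each; limma, adjusted p = 0.195).

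Several of these genes are GC-rich, and the GC trend bore on them unevenly. With the trend removed Thra stood at 0.23 ± 0.11, Nr1h2 at 0.07 ± 0.08, Nr2f6 at 0.03 ± 0.09 and Carm1 at 0.05 ± 0.07 on the log2 scale (SE), all nearer 0 than before. Ppard stood at 0.23 with the trend removed, against 0.27 as deposited, and Ncoa2 at 0.19 against 0.16. Nr1h3 moved away from 0, at −0.38 against −0.25. Dhrs3, Lpl, Rarres2 and Fabp5, which lay lower, stood at −0.53 ± 0.14, −0.86 ± 0.21, −0.92 ± 0.23 and −0.62 ± 0.29, close to their values as deposited.

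**Figure D5:**
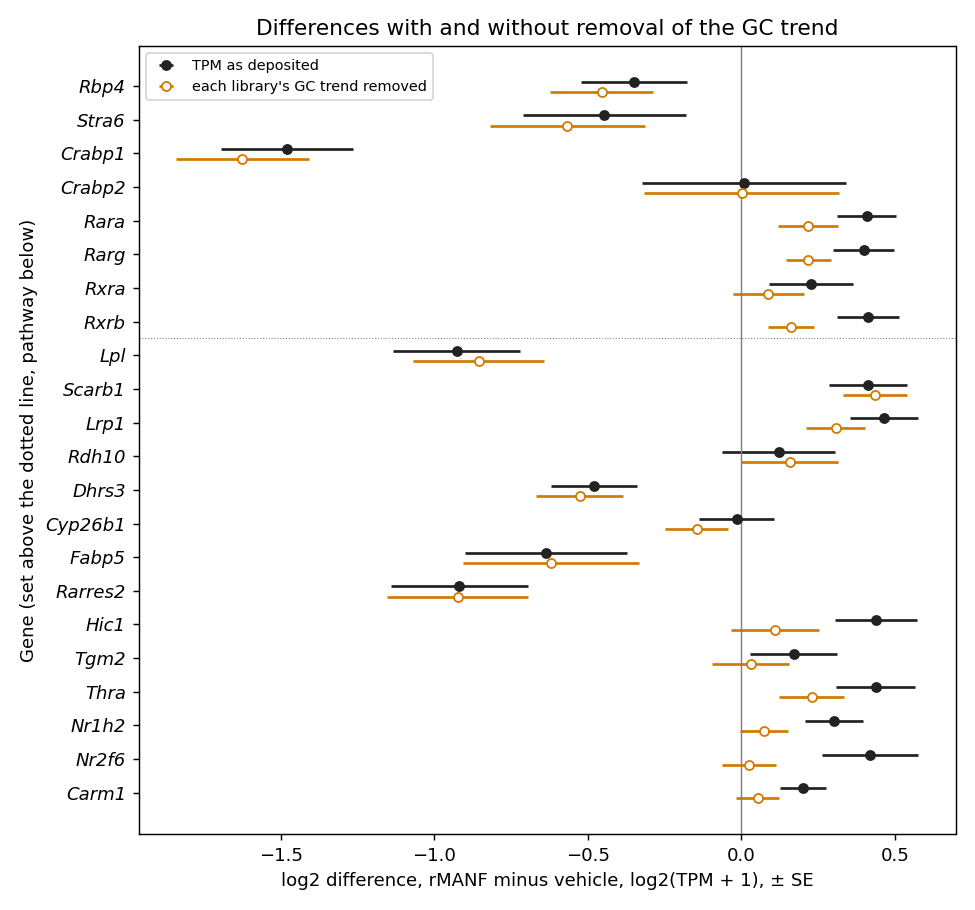
log2 difference, rMANF minus vehicle, on log2(TPM + 1) with its SE (n = 3 per group) for the 8 members in the fit and 14 other genes of the pathway. Filled points use TPM as deposited and open points the values with each library's GC trend removed; Rara, Rarg and Rxrb move toward 0 and Crabp1, Dhrs3, Lpl and Rarres2 stay below it.

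Other cell types differed between the groups as well. Skeletal muscle markers, 20 of 20 present, summed to 148 to 168 TPM with rMANF and 203 to 1596 TPM with vehicle, highest in vehicle replicate 2. With that level as a covariate Crabp1 stood at −1.41, Crabp2 at −0.48, Rbp4 at −0.22, Rara at 0.36, Rarg at 0.31 and Rxrb at 0.35. T and NK cell markers (12 of 12 present) summed to 22.9 to 42.5 TPM with rMANF and 46.5 to 120 TPM with vehicle, and endothelial markers (12 of 12) to 191 to 216 and 146 to 179 TPM. The sums of smooth muscle and pericyte markers overlapped, at 126 to 137 TPM with rMANF and 135 to 165 TPM with vehicle. Of the melanocyte markers, 5 of 10 with rows, Pmel, Sox10, Gpr143 and Oca2 stayed below 1 TPM, and so did 7 of 12 epithelial markers. The 1 melanocyte marker in the fit averaged 9.46 TPM over the 6 libraries, and its groups overlapped. The melanocyte markers summed to at most 10.3 TPM with rMANF and 12.7 TPM with vehicle. The epithelial markers, whose sum is nearly all Krt8, summed to 318 to 345 TPM with rMANF and 212 to 288 TPM with vehicle, higher without overlap as for Rara, Rarg and Rxrb. Their part in the retinoid genes' differences was not tested. The skeletal muscle sums did not overlap between the groups, so that covariate cannot be told apart from treatment. The ratios and the covariate values are given as a description.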

How the data were processed

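The authors deposited log2 TPM per gene for 6 libraries in 1 table. Libraries were prepared from QIAzol RNA by the Nextera XT kit, per the labels' protocols. The tools named are HTSeq 0.11.0, Salmon 0.14.1, fastp and cutadapt, with build mm10, per the submitters' processing notes. The one that gave the values and the annotation used were not given in the sources used here.

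Deposited values were raised as powers of 2, with −9 read as 0 TPM. The 12865 genes averaging 1 TPM or more were fitted with limma 3.58.1 in R 4.3.3 on log2(TPM + 1), with treatment as the only term, a variance trend, two-sided tests and Benjamini-Hochberg adjustment at 0.05. TPM keeps no depth, so no counting interval was computed. Transcript GC content (longest transcript) and positions came from GENCODE M21 on GRCm38, found for 99.7% of tested genes, and its trend was removed by loess with a span of 0.5. Promoter windows came from RefSeq on GRCm38.p6. The fit was tested on simulated data.

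The members and lists were chosen with earlier results of these data known. Named genes were the members, a fixed set of pathway genes, and per list the 3 of smallest p and the 2 most abundant. Wdr61, Rab7-ps1, Ireb2 and Top2b were named for their positions, the 5 nearest to Crabp1 by distance, and Dgat1, Zfp703, Ppard, Nr1h3 and Ncoa2 after their values were seen, to complete small counts. Alternatives are given in the closing section. Of the genes this rule names, 2 are not reported here.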

Additional observations from a re-analysis of the deposited data

How the results depend on the processing

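Over the 21 alternatives that gave a value, Crabp1's log2 difference lay between −1.72 and −0.94, lowest with a pseudocount of 0.1 TPM and nearest 0 with a pseudocount of 5 TPM (−0.94), which shrinks low genes. Leaving out each library in turn gave −1.70 to −1.33. Limma called 0 of all tested genes as reported, 737 with library weights, 3 with the replicate block, 1 with the GC trend removed, 13 without vehicle replicates 1 and 2, 0 to 4 when each library was left out in turn, and 351 at a threshold of 0.10. Pathway genes called numbered 2 with library weights and 1 at a threshold of 0.10 (Lpl), and 0 to 0 when each library was left out. Members below all vehicle values numbered 1, and 1 to 3 when each library was left out. Rbp4 and Stra6 joined without vehicle replicate 1 and Stra6 without rMANF replicate 1. The share of all tested genes that lay lower rose too, from 9.02% to 12.9% without vehicle replicate 1 and 12.3% without rMANF replicate 1. Without vehicle replicates 1 and 2 the count of members was 3 and the share of all tested genes 22.4%. Members above all vehicle values numbered 3, 3 to 4 when each library was left out, and 1 with the GC trend removed, alone or with the replicate block. The count of 4 came without vehicle replicate 3, where 25.1% of all tested genes lay higher, against 18.9% as reported. With the GC trend removed that share was 18.1%. The cause of these shifts was not tested. The difference for Cyp26b1 ran from −0.079 to 0.087 when each library was left out, above 0 without rMANF replicate 1 (0.036) and without vehicle replicate 3 (0.087). The replicate numbers gave no sign of pairing: same-numbered libraries deviated together with correlations of −0.07, 0.03 and 0.05. In this balanced design the block cannot move a difference, and it changed the SE of Rara to 0.13, against 0.096 without it, and that of Rbp4 to 0.13, against 0.17. The covariate fit gives no overlap counts. With 3 libraries a group and unknown depth, values near or below 1 TPM (Crabp2, Rarb, Rxrg, Cyp26a1) are the least certain.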
